A study of Mus musculus with 4 samples.

Results

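Immediate-early genes are transcribed within minutes of a stimulus, without new protein synthesis, and their messenger RNAs are mostly short-lived. The 40 genes described here were found by their symbols among the 32285 genes of each library, and all 40 were present in the 4 libraries. Membership rests on the symbol and not on a measured value. They comprise 9 bZIP factors (the AP-1 subunits Fos, Fosb, Fosl1, Fosl2, Jun, Junb and Jund, with Atf3 and Maff), 3 EGR and 3 NR4A factors, 4 KLF factors, Myc, Cebpb and Cebpd, 5 DUSP phosphatases, 5 genes of RNA decay and growth arrest (Zfp36, Zfp36l1, Zfp36l2, Btg1, Btg2), 3 IER genes, and Rgs1, Rgs2, Rhob, Gadd45b and Ppp1r15a.

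The samples were single-cell suspensions of mouse pancreas, profiled by 10x Genomics 3' RNA sequencing, with 1 library per group. The first library came from a pancreas labelled normal. The ligated library came from a pancreas closed with a suture at its middle, which blocks the duct and brings on pancreatitis. For the control tumour, KPC cells, which are mouse pancreatic cancer cells, were inoculated into a pancreas ligated in the same way, with weekly saline injections into the abdomen. The AF12198-treated tumour was made likewise, with the injections holding AF12198, a peptide that blocks the interleukin-1 receptor IL1R1. All tissues were taken at 4 weeks. The control tumour and the ligated pancreas therefore share the ligation and differ in the cancer cells and the saline, and the tumours share ligation and cancer cells and differ in the drug. The sources used here do not give strain, age, sex or how many animals went into a library.

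Most of these genes respond to growth factors, cytokines, calcium and stress through MAP kinases, serum response factor, CREB and NF-κB, and several act back on those signals: DUSP proteins dephosphorylate MAP kinases, and Zfp36 (tristetraprolin) speeds the decay of cytokine messages. Nr4a1, Nr4a2, Nr4a3, Egr2, Egr3 and Rgs2 are known to respond to calcium and the calcineurin-activated factor NFAT, which the study's title names, and are described apart as the calcium and NFAT-responsive members. Another 25, among them Fos, Jun, Egr1, Ier2, Dusp1 and Zfp36, are known to rise while tissue is digested, and are called the handling-responsive members. All 4 tissues were digested with collagenase for 90 minutes at 37°C, and no undigested sample was measured, so the part of digestion in any level was not tested.

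The libraries kept 1769, 1124, 19288 and 18850 cells (normal, ligated, control and AF12198-treated), with medians of 1589, 2216, 2041 and 2296 unique molecular identifiers (UMIs, counted RNA molecules) per cell and 2.16, 1.25, 5.53 and 3.95% mitochondrial UMIs. Clustering gave 31 clusters, of which 28 were named from marker genes and 3 stayed unnamed. The names are given as "-like", and T cells are given by cluster. A level is in CPM, the counts of a gene scaled to a fixed total of UMIs of its class in a library. Because tags come from the 3' end, levels are compared within a gene. With 1 library per group there was no replicate check and no test of any difference; the intervals in brackets are exact 95% intervals that cover counting error only. A member is called higher or lower past 1.5-fold on the log2(CPM + 1) scale, among the members with at least 5 UMIs in the pair of libraries and 5 CPM in 1 of them. Only 2 normal and 11 ligated cells fell in the acinar-like cluster, so acinar cells of those tissues are not described.

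Promoter sequence was read for the members whose differences recur below: Junb, Dusp1, Zfp36 and Nr4a1, which were lower in the AF12198-treated tumour in every class compared, Fos, which defines the class of genes, and Gadd45b, which was lower in none. The windows are the 250 bases before the RefSeq start site on GRCm38.p6 (mm10), 5′ to 3′ on the gene's strand: chr8:84978749-84978998 (minus) for Junb, chr17:26508473-26508722 (minus) for Dusp1, chr7:28379229-28379478 (minus) for Zfp36, chr15:101266596-101266845 (plus) for Nr4a1, chr12:85473640-85473889 (plus) for Fos and chr10:80929841-80930090 (plus) for Gadd45b. Capitals mark TGACG or its reverse complement CGTCA, the core of the CREB and ATF site, the AP-1 motif TGANTCA, and the CArG box bound by serum response factor.
Junb: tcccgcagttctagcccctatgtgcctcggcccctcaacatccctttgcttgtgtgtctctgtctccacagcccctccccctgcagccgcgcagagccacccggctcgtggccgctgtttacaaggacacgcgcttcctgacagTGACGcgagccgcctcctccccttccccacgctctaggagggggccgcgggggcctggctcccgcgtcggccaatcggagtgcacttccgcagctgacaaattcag
Dusp1: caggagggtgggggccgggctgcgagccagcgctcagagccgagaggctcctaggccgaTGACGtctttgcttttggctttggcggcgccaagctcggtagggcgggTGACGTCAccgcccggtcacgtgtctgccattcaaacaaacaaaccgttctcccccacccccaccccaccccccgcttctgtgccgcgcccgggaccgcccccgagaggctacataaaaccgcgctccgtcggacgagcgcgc
Zfp36: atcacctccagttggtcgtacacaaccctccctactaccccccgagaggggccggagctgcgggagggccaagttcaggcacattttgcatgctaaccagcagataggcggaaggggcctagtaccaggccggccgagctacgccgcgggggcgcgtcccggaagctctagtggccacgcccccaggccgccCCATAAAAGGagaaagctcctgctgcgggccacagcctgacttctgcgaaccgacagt
Nr4a1: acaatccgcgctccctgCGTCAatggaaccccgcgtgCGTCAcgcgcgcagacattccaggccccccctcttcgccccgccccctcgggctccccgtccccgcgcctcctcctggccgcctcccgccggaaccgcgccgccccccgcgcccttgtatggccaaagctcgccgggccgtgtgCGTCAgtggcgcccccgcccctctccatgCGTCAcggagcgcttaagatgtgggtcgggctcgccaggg
Fos: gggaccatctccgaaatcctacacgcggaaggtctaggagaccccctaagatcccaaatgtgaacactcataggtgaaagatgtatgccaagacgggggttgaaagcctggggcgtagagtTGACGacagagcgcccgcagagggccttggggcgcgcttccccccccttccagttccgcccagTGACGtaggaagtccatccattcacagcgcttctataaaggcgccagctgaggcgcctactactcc
Gadd45b: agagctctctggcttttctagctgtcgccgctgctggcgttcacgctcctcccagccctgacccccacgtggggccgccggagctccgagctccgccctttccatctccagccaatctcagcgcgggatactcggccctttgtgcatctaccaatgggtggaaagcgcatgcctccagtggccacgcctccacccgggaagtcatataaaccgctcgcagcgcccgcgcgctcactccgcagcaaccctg
In these windows TGACG stood 1 time in Junb, 3 times in Dusp1, 4 times in Nr4a1 and 2 times in Fos. The 8-base palindrome TGACGTCA in Dusp1 holds TGACG on both strands and gave 2 of its 3. Zfp36 held a CArG box and no TGACG, and Gadd45b held none of these motifs.

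Windows of this length were found for 30 of the 40 members and 27025 genes in all. TGACG, on either strand, stood in 16 of the 30 (53.3%) against 17.9% of all windows, and TGACGTCA, which contains it, in 3 (10.0%, Dusp1, Btg2 and Ppp1r15a) against 1.62%. A CArG box stood in 2 (6.67%, Dusp5 and Zfp36) against 1.40%. TGANTCA was found in 1 window (3.33%, Zfp36l1) against 6.87%, GGAAA, the core letters of an NFAT site, in 12 (40.0%) against 55.6%, and the EGR motif GCGTGGGCG in 0 against 0.540%. A match describes these letters in these windows only.

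Together the 40 genes took 3.19% of all UMIs in the normal library, 2.67% in the ligated, 2.91% in the control tumour and 1.68% in the AF12198-treated tumour. Neutrophil-like cells carried the largest share of any class: 5.51, 7.04 and 3.65% in the ligated pancreas, control tumour and AF12198-treated tumour. In the normal pancreas the largest share was in epithelial-like cells, at 3.48%, all of cluster 2 (Dcdc2a, Onecut1), and the smallest in endocrine-like cells, at 0.969%. Plasma-like cells, at 0.806 and 0.612% in the tumours, were the lowest of the immune classes. Per cell, thinned to 1000 UMIs, the control tumour's neutrophil-like cells had a median share of 7.2% (quartiles 5.5 and 9%). In the treated tumour it was 3.8% (2.6 and 5%). These quartiles give the spread over cells of 1 library each and not over animals. The tumours also filled the neutrophil-like clusters unequally, as described below.

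**Figure D1:**
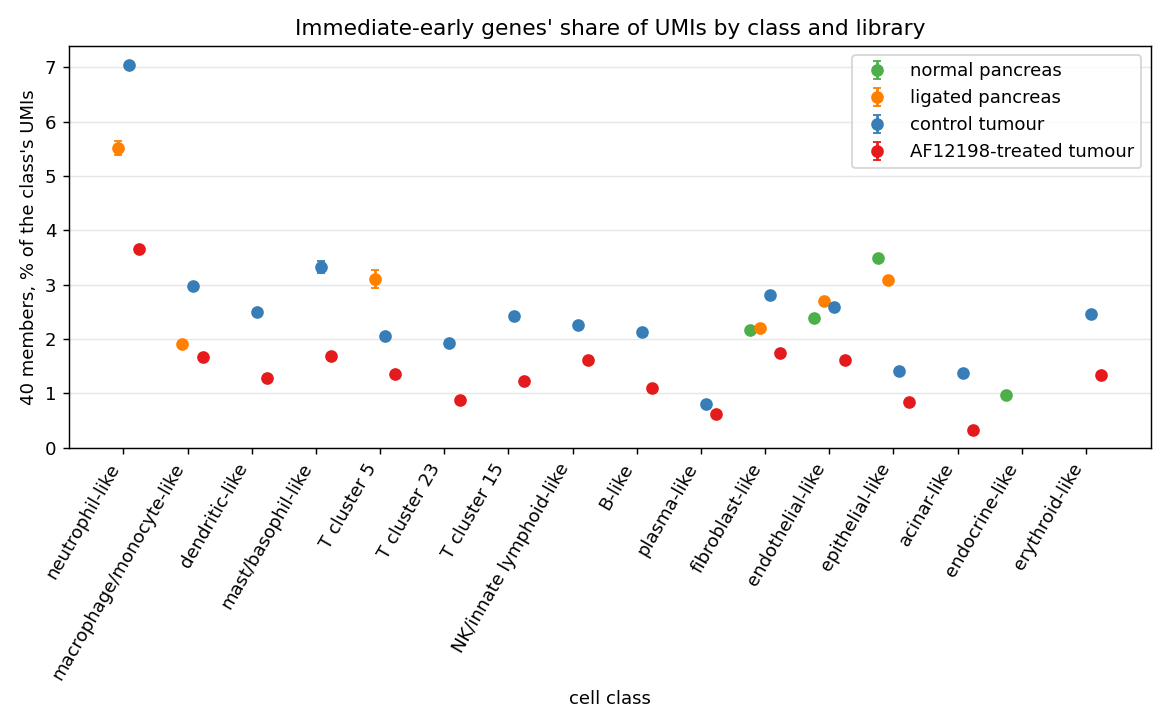
Share of all UMIs of a class (y axis, percent) that belong to the 40 immediate-early genes, by cell class (x axis) and library (colour); bars are exact 95% intervals for counting error, mostly smaller than the points. The control tumour lies above the AF12198-treated tumour in each of the 15 classes that both libraries hold, with the highest value, 7.04%, in neutrophil-like cells.

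Erythroid-like cells were taken as the class that should lack most of these genes, so that their level stands for free RNA. They still showed 2.46 and 1.34% in the tumours, with 4275 CPM of Junb in the control tumour against 3818 in T cluster 5. By non-overlapping intervals, 35 of the 40 members stood above that level in neutrophil-like cells of the control tumour, 24 in macrophage or monocyte-like, 17 in endothelial-like and 16 in fibroblast-like and in epithelial-like cells. In T cluster 5 it was 9, in T cluster 23 it was 10 and in B-like cells 8. The matching share of all genes was not computed, and intervals are narrower in classes with more UMIs. These counts therefore neither rank the classes nor set the members apart from other genes. A level at or below the erythroid-like one cannot be told apart from free RNA by this comparison, in any class. That does not make it free RNA. Subtraction of each library's pooled profile, a separate estimate, took 43.6 and 5.44% of erythroid-like UMIs in the control and treated tumour. The erythroid-like level thus need not be free RNA alone. In fibroblast-like cells of the control tumour the members above it were Fos, Fosb, Fosl1, Jun, Jund, Atf3, Egr1, Egr2, Ier2, Ier3, Zfp36l1, Klf2, Klf4, Klf6, Myc and Cebpd. Junb, Dusp1, Zfp36, Nr4a1, Nr4a3 and Rgs2 stood above it in neutrophil-like cells, but in fibroblast-like, endothelial-like and epithelial-like cells none of these 6 did. In macrophage or monocyte-like cells Junb, Zfp36, Nr4a3 and Rgs2 stood above it and Dusp1 and Nr4a1 did not. The pancreas libraries held too few erythroid-like cells for such a comparison.

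Different members were highest in different classes. Of the 40, 18 had their highest CPM in neutrophil-like cells of the control tumour, including Fos, Junb, Dusp1, Zfp36, Nr4a1, Btg1, Btg2 and Cebpb. Fibroblast-like cells held the highest Fosb, Jun, Egr1, Ier2, Klf4 and Cebpd, endothelial-like cells the highest Dusp6 and Klf2, the shear-responsive factor of vessel lining, and epithelial-like cells the highest Fosl1 (FRA-1). In 34 of these 40 the interval of the highest class lay clear of the next. Mast or basophil-like cells, only 34 in the control tumour, led for Jund, Egr3, Ier3, Nr4a3 and Rgs1. In the normal pancreas, which held 4 classes in sufficient number, epithelial-like cells led for 16 members, endothelial-like for 14, fibroblast-like for 8 and endocrine-like for 2.

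The ligated and the normal pancreas can be compared in fibroblast-like, endothelial-like and epithelial-like cells. This comparison asks what the ligation changes. In fibroblast-like cells (93 normal and 281 ligated), 10 of 37 measured members were higher (background 21.4% of all genes measured) and 6 lower (background 21.5%), and the members' median log2 ratio was 0.08 against -0.03 for all genes. The share of members called in either direction was thus close to that of all genes, and the summed share was 2.16 and 2.2%.

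All 3 NR4A receptors, orphan nuclear receptors that act as transcription factors, were nevertheless higher in the ligated fibroblast-like cells. Nr4a2 stood at 22.6 and 232 CPM, 10.3-fold higher (5.93 to 19.4). Nr4a1 stood at 341 and 635 CPM, 1.86-fold higher (1.6 to 2.18), and Nr4a3 at 74.9 and 139, 1.86-fold higher (1.34 to 2.63). The level of Ier3, an early gene tied to survival under stress, was 181 and 506 CPM, 2.79-fold higher (2.28 to 3.45), and that of Zfp36 442 and 1070.3 CPM, 2.42-fold higher (2.12 to 2.77). Dusp1, which inactivates p38 and JNK kinases, was 1.64-fold higher (1.48 to 1.83) and Klf2 1.71-fold higher (1.34 to 2.2). Fosl1 had 0 UMIs in the normal library and 11 CPM in the ligated, at least 2.11-fold higher if 3 counts are allowed in the normal library.

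The lower members in these fibroblast-like cells included Klf10, a TGF-β-induced factor, at 76.6 and 27.2 CPM, 2.81-fold lower (1.84 to 4.28), and Dusp6, a phosphatase of ERK, at 66.2 and 23.1 CPM, 2.87-fold lower (1.81 to 4.53). Egr2 was 1.68-fold lower (1.12 to 2.49), Zfp36l2 1.63-fold lower (1.41 to 1.88) and Klf4 1.55-fold lower (1.41 to 1.7). The classical members were not called: Fos had a ratio of 0.67 (0.627 to 0.716), Jun a ratio of 0.856 (0.806 to 0.909), Egr1 a ratio of 0.874 (0.833 to 0.916) and Myc a ratio of 1.39 (1.02 to 1.93). Rgs2 was at 19.2 and 19.4 CPM. Of heat shock genes, which digestion also raises, 6 of 14 were higher and 0 lower in these cells, and their part in the members' differences was not tested.

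Ligated endothelial-like cells (260 normal, 129 ligated) had 10 of 38 members higher (background 32.0%) and 4 lower (background 20%), and the median over all genes was itself raised by 0.20 in log2. Measured from that median, 6 members were higher (background 25.7%) and 7 lower (26.1%). Without mitochondrial and ribosomal genes in the total it was 6 (27.5%) and 6 (24.3%). Cebpb, a factor of inflammatory gene control, stood at 95.1 and 417 CPM, 4.39-fold higher (3.24 to 6). Dusp2 was 8.2-fold higher (4.52 to 15.9), Maff 3.1-fold higher (1.87 to 5.21), Dusp6 2.38-fold higher (1.74 to 3.27), Klf6 2.03-fold higher (1.65 to 2.48) and Egr3 1.81-fold higher (1.23 to 2.66), although with cells thinned to 1000 UMIs the log2 ratio of Egr3 was -0.0817. Ier3 went the other way from fibroblast-like cells, at 1658 and 693 CPM, 2.39-fold lower (2.08 to 2.76), and Gadd45b, a growth-arrest gene, was 1.8-fold lower (1.34 to 2.45), with a log2 ratio of 0.41 at clustering resolution 0.5. Fos was at 938 and 1052 CPM with a ratio of 1.12 (0.982 to 1.28), Jun had a ratio of 1.25 (1.16 to 1.34), Egr1 a ratio of 1.13 (1.04 to 1.23) and Nr4a1 a ratio of 1.31 (1.08 to 1.6). The class differed in make-up between the libraries. Cluster 11 (Ccl21a, Mmrn1, Lyve1) held 3 normal and 38 ligated cells, and cluster 1 (Emcn, Plvap) 257 and 91. Within cluster 1, 7 of 38 members were higher and 4 lower, against 29.7 and 24.0% of all genes there. The ratios above are of the whole class, and the part of its make-up in them was not tested.

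In epithelial-like cells (652 and 335) the members differed little between the tissues: 1 of 35 was higher (background 13.5%) and 5 were lower (10.1%). Measured from the median of all genes it was 0 (background 10.2%) and 6 (12.9%). The one higher without that adjustment was Fosb, at 671 and 1034 CPM, 1.54-fold higher (1.47 to 1.62). Btg2, a p53-induced antiproliferative gene, fell from 1792 to 983 CPM, 1.82-fold lower (1.74 to 1.91). Cebpd was 1.83-fold lower (1.67 to 2.02), Nr4a1 1.62-fold lower (1.49 to 1.77), Atf3 1.57-fold lower (1.5 to 1.65) and Nr4a3 1.56-fold lower (1.03 to 2.46). Egr1 was at 4372 and 4394 CPM and Fos at 1939 and 1756.

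Set against the ligated pancreas, the control tumour asks what the cancer cells add. In fibroblast-like cells (281 and 1352), 15 of 40 members were higher (background 20.5%) and 1 lower (14.2%), with a median log2 ratio of 0.50 against 0.11 for all genes. All 5 DUSP genes were higher. The calcium and NFAT-responsive members had 4 of 6 higher and 0 lower, and the handling-responsive members 5 of 25 higher and 1 lower. Their summed levels were as follows: the calcium and NFAT-responsive members took 0.0592, 0.115, 0.203 and 0.122% of UMIs in the order normal, ligated, control and treated, and the handling-responsive members 2.02, 2.02, 2.49 and 1.54%. In the first list the control tumour was highest and the normal pancreas lowest; in the second the treated tumour was lowest.

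Rgs2, a brake on G-protein signals, was the member of the calcium and NFAT-responsive list with the largest ratio in these cells, at 19.2, 19.4, 106 and 49.2 CPM in that order and 5.47-fold higher (3.95 to 7.8) in the control tumour than in the ligated pancreas. Nr4a3 followed, at 74.9, 139, 452 and 297 CPM, 3.25-fold higher (2.87 to 3.68). Both were at their highest in the control tumour. Of the phosphatases, Dusp5, which acts on nuclear ERK, was at 34.8, 21.5, 101 and 49.2 CPM and 4.68-fold higher (3.43 to 6.56), Dusp1 at 721, 1184, 1952 and 877 CPM and 1.65-fold higher (1.58 to 1.72), Dusp2 15.4-fold higher (5.22 to 75) and Dusp4 3.98-fold higher (1.51 to 14.8), the last pair from 3 and 4 ligated UMIs. Rgs1 was 9.93-fold higher (4.53 to 27.2), from 6 ligated UMIs. In the control tumour the erythroid-like levels were 384 CPM for Rgs2, 609.9 for Nr4a3, 1965 for Dusp1, 585 for Dusp5, 16.1 for Dusp4, 339 for Rgs1 and 291 for Dusp2. All were above the fibroblast-like ones, so the comparison with erythroid-like cells cannot tell these 7 apart from free RNA there. After subtraction of each library's pooled profile the log2 ratio of Nr4a3 was 1.57 against 1.69 without it, and that of Rgs2 was 6.08 against 2.39.

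Fos and Ier3 were also higher in the tumour's fibroblast-like cells: Fos stood at 2201, 1474, 2399 and 1738 CPM, 1.63-fold higher (1.57 to 1.69), and Ier3 at 181, 506, 864 and 777, 1.71-fold higher (1.6 to 1.82). The tumour's level of Fos was close to the normal one, and its Ier3 was above both pancreas libraries. Jun had a ratio of 1 (0.968 to 1.03), Egr1 a ratio of 1.07 (1.04 to 1.09), Zfp36 a ratio of 1.34 (1.28 to 1.4), Nr4a1 a ratio of 1.45 (1.37 to 1.54), Klf2 a ratio of 1.24 (1.13 to 1.37) and Myc a ratio of 0.789 (0.685 to 0.911), none past 1.5-fold. Cebpd, a factor of adipocyte and acute-phase gene control, was the one lower member, at 496, 402, 159 and 180.1 CPM, 2.52-fold lower (2.32 to 2.74). It was also 3.39-fold lower (2.77 to 4.13) in endothelial-like cells, 5.46-fold lower (4.85 to 6.14) in epithelial-like cells and 1.75-fold lower (1.16 to 2.54) in neutrophil-like cells. The epithelial-like cells of these libraries lay mostly in different clusters. Within cluster 2, which both libraries hold, Cebpd was not called lower.

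Endothelial-like cells (129 and 499) had 9 of 39 members higher (background 26.1%) and 6 lower (33.6%). Measured from the median of all genes it was 14 (background 29.8%) and 4 (27.8%). All 3 NR4A genes were higher, with Nr4a1 at 396, 520.0, 972 and 388 CPM across the 4 libraries, 1.87-fold higher (1.6 to 2.19), Nr4a2 2-fold higher (1.52 to 2.68) and Nr4a3 2.24-fold higher (1.53 to 3.42). Dusp5 was 4.91-fold higher (2.99 to 8.66), Rgs2 3.34-fold higher (1.83 to 6.79) and Dusp1 1.75-fold higher (1.55 to 1.97). Rgs1 had 0 UMIs in the ligated cells and 65.1 CPM in the tumour. None of these 7 stood above the erythroid-like level, and after subtraction of the pooled profile the log2 ratio of Nr4a3 was -0.10. Jun was lower, at 2827, 3526, 1313 and 1368 CPM, 2.69-fold lower (2.51 to 2.88). Ier2 was 2.02-fold lower (1.75 to 2.33), Btg2 1.66-fold lower (1.47 to 1.87), Klf4 1.63-fold lower (1.47 to 1.81) and Klf10 1.54-fold lower (1.12 to 2.08), with a log2 ratio of 0.18 for Klf10 in thinned cells. Fos had a ratio of 1.43 (1.29 to 1.61) and Egr1 a ratio of 0.841 (0.78 to 0.907). These ratios are of the whole class, whose clusters differed. Within cluster 1 (Emcn, Plvap, 91 and 398 cells) 10 of 39 members were higher and 11 lower, against 31.0 and 31.1% of all genes there. Its share went from 2.72 to 2.34%. Within cluster 11 (Ccl21a, Mmrn1, 38 and 101 cells) 17 of 38 were higher and 3 lower, against 28.7 and 31.0%. There the share went from 2.66 to 3.65%.

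**Figure D2:**
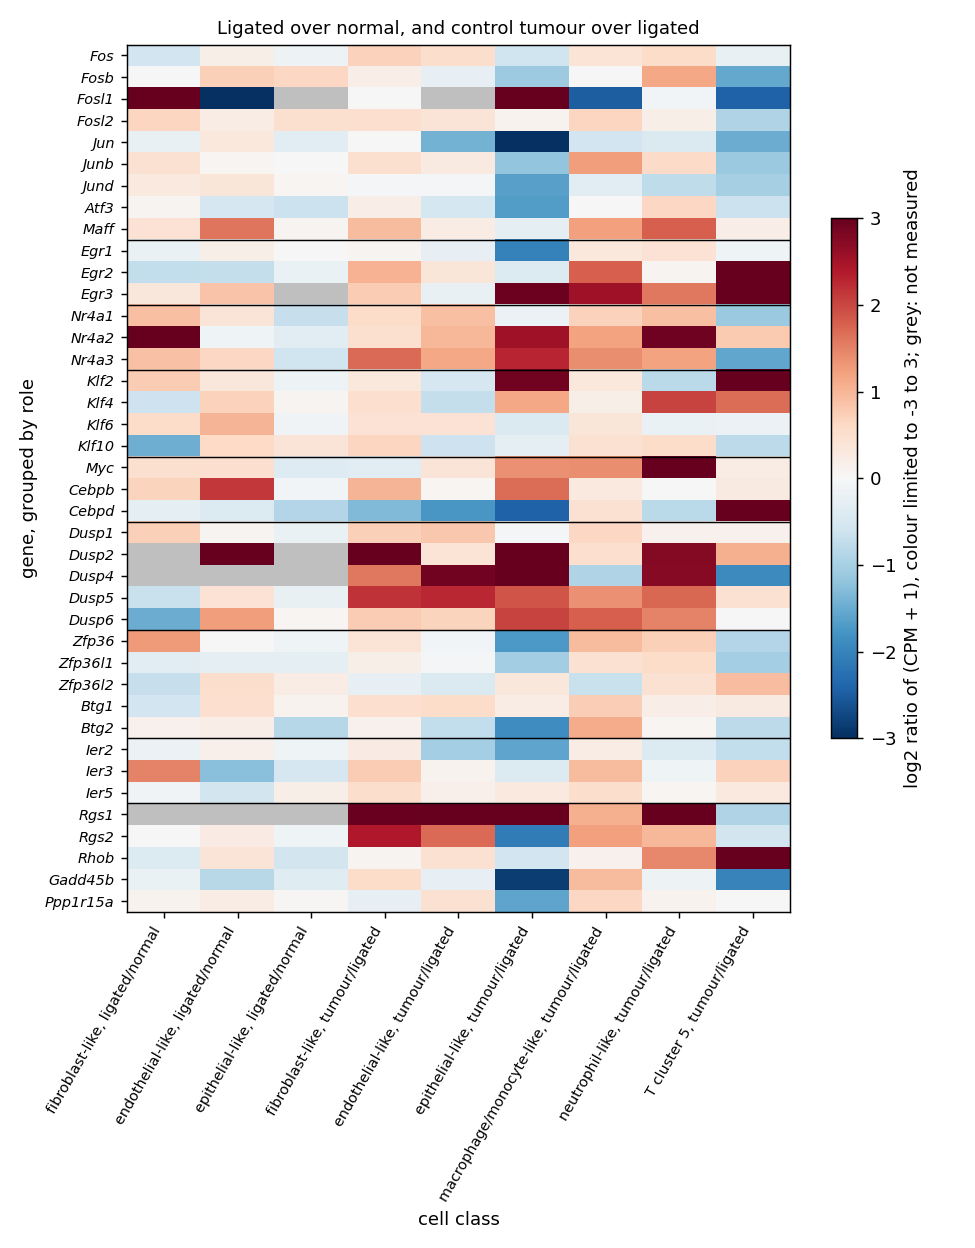
Log2 ratio of (CPM + 1) for each of the 40 members (rows, grouped by role) in 3 classes for ligated over normal pancreas and in 6 classes for control tumour over ligated pancreas (columns); red is higher in the first-named library, blue lower, grey not measured. The NR4A and DUSP rows are mostly red in the control tumour columns other than T cluster 5, while Jun and Cebpd are blue in epithelial-like and endothelial-like cells.

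In macrophage or monocyte-like cells 20 of 40 members were higher in the control tumour (background 23.2%) and 3 lower (27.2%). The median log2 ratio was 0.57 against -0.07 for all genes. At clustering resolution 2, where a cluster with 138 ligated and 36 control cells bore this name, 13 members were higher (background 20.4%). Only 59 ligated cells stood against 4936, with 27 and 22 of the ligated cells in clusters 12 (Folr2, Pf4) and 17 (Ccr2, Nrg1) and 1141 and 2744 of the tumour's. The unnamed cluster 7, with markers of acinar and of macrophage or monocyte cells, held 126 ligated and 21 control cells and is left out here. Its share in the ligated library was 3.18%, against 1.91 and 2.98% in the ligated and control cells compared. Within cluster 12 (27 and 1141 cells), 23 of 40 members were higher and 4 lower, against 28.9 and 26.6% of all genes there.

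All 6 calcium and NFAT-responsive members were among the higher ones in these macrophage or monocyte-like cells. Nr4a3 stood at 300.4, 785 and 547 CPM in ligated, control and treated, 2.61-fold higher (2.07 to 3.35), Rgs2 at 190.4, 451 and 262, 2.37-fold higher (1.77 to 3.25), and Egr2, a factor of macrophage and T-cell activation, at 42.3, 149 and 90.8, 3.52-fold higher (1.91 to 7.35). Egr3 was 6.17-fold higher (2.11 to 29.9) from 3 ligated UMIs. Junb was 2.37-fold higher (2.18 to 2.58), Dusp6 3.58-fold higher (1.73 to 8.9), Dusp5 2.59-fold higher (2.05 to 3.31), Zfp36 1.92-fold higher (1.69 to 2.21), Ier3 1.92-fold higher (1.66 to 2.24) and Dusp1 1.54-fold higher (1.37 to 1.75). Egr3, Dusp6 and Dusp1 did not stand above the erythroid-like level in the tumour. Zfp36l2 was 1.58-fold lower (1.34 to 1.86) and Fosl1 6.6-fold lower (2.58 to 14.1) from 7 ligated UMIs. Fos had a ratio of 1.34 (1.16 to 1.56), Jun a ratio of 0.67 (0.577 to 0.782) and Egr1 a ratio of 1.25 (1.04 to 1.51).

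In neutrophil-like cells (72 ligated, 6037 control tumour), 17 of 40 members were higher (background 47.2%) and 3 lower (22.6%). The share higher was near that of all genes, whose median log2 ratio was 0.48. Measured from it, 13 were higher (background 36.3%) and 8 lower (34.3%). Cluster 18 (Cxcr2, Il1f9) held 51 of the ligated cells and cluster 21 (Il1r2, Hdc) 5087 of the tumour's. Within cluster 18 (51 and 267 cells) 21 of 39 were higher and 3 lower, against 39 and 21.9% of all genes there, with shares of 5.65 and 8%. Nr4a2 stood at 111, 840.4 and 438 CPM in ligated, control and treated, 7.58-fold higher (4.52 to 13.9). Dusp2 was 6.79-fold higher (4.29 to 11.5), Klf4 4.17-fold higher (1.78 to 12.9), Maff 3.5-fold higher (2.33 to 5.52), Dusp5 3.28-fold higher (2.5 to 4.4), Nr4a3 2.32-fold higher (1.88 to 2.89) and Nr4a1 1.88-fold higher (1.66 to 2.16). Rgs1 rested on 2 ligated UMIs, with a ratio of 20.1 (5.56 to 166), and neither it nor Klf4 stood above the erythroid-like level. Klf2, which keeps leukocytes quiescent, was 1.75-fold lower (1.4 to 2.17) and Jund 1.69-fold lower (1.45 to 1.95). Fos, at 1774, 2618 and 526 CPM, had a ratio of 1.48 (1.29 to 1.69), Dusp1 a ratio of 1.09 (1.02 to 1.17) and Egr1 a ratio of 1.34 (1.19 to 1.52). The summed share of heat shock genes was 0.294 and 0.996% in these 2 libraries and its part in the members' values was not tested.

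Epithelial-like cells of the control tumour split in both directions, with 13 of 40 members higher (background 25.6%) and 15 lower (39.8%). Their summed share was 3.48, 3.09, 1.41 and 0.846% across the 4 libraries. The handling-responsive members had 4 of 25 higher and 13 lower, the calcium and NFAT-responsive members 3 of 6 higher and 1 lower. Of the lower members Jun had the largest difference, at 5920.0, 4715, 506 and 477 CPM, 9.31-fold lower (9.05 to 9.58). Gadd45b was 7.3-fold lower (6.79 to 7.84), Cebpd 5.46-fold lower (4.85 to 6.14), Rgs2 4.3-fold lower (3.87 to 4.78), Egr1 4.06-fold lower (3.96 to 4.16), Btg2 3.68-fold lower (3.49 to 3.87) and Zfp36 3.32-fold lower (3.2 to 3.45). On the other side stood Fosl1, an AP-1 subunit known from invasive carcinoma, at 3.32, 2.71, 41.4 and 38.7 CPM, 15.2-fold higher (6.97 to 41.7) from 6 ligated UMIs. Klf2 was 7.71-fold higher (5.74 to 10.6), Nr4a3 5.2-fold higher (3.53 to 8), Myc 2.64-fold higher (2.08 to 3.4) and Egr3 9.49-fold higher (4.79 to 22.1). Dusp4, a nuclear phosphatase of ERK, was 20.4-fold higher (6.92 to 99.1) and Dusp2 13.9-fold higher (4.7 to 67.5), each from 3 ligated UMIs, and Rgs1 11.5-fold higher (5.25 to 31.5). Nr4a3, at 61.2 CPM, lay below its erythroid-like level of 609.9. Egr3, Dusp2 and Rgs1 lay below their erythroid-like levels of 121, 291 and 339 CPM. The interval of Klf2, at 157 CPM, overlapped its erythroid-like one at 134. By the comparison with erythroid-like cells these 5 cannot be told apart from free RNA.

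The classes compared here hold different cells. Of the tumour's 1280 epithelial-like cells, 88 were in cluster 2, which held 330 of the 335 ligated ones, and 645 and 547 in clusters 20 (Tff1, Msln) and 30 (Onecut2, Hmga2), with 5 and 0 ligated cells. Within cluster 2 the direction was the reverse of the whole class: 28 of 40 members were higher in the control tumour and 1 lower, against 20.5 and 21.8% of all genes there, and the share went from 3.09 to 4.61%. In that cluster Fos went from 1759.8 to 3564 CPM, Egr1 from 4398 to 7218 CPM, Zfp36 from 1771 to 3685 CPM, Nr4a1 from 272 to 1305 CPM and Nr4a3 from 11.8 to 161 CPM. Gadd45b was the lower member, from 679 to 320.2 CPM, and Jun went from 4727 to 3591 CPM. Cebpd, lower in the whole class, was not called lower in this cluster. Clusters 20 and 30 had low shares in the control tumour, 0.608 and 1.35%.

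T cluster 5 (Lef1, Tcf7) had 10 of 40 members higher (background 46.8%) and 17 lower (29.6%) in the control tumour than in the ligated pancreas. From the median of all genes it was 7 (background 41.7%) and 19 (37.8%). The ligated side was 49 cells with 43160 UMIs in all. Nr4a3 was 2.94-fold lower (2.33 to 3.67), Nr4a1 2.15-fold lower (1.68 to 2.72), Fosb 2.93-fold lower (1.92 to 4.3), Jun 2.79-fold lower (1.73 to 4.3), Junb 2.15-fold lower (1.92 to 2.39) and Gadd45b 4-fold lower (2.81 to 5.57). After subtraction of the pooled profile the log2 ratio of Jun was 5.27, the opposite direction. None of these 6 stood above the erythroid-like level in the control tumour. Nr4a3, at 2039, 694 and 739 CPM, was thus lower here and higher in each other class compared. Nr4a2 was 1.71-fold higher (1.05 to 3.02) and Zfp36l2 1.91-fold higher (1.23 to 3.15). Klf2, a gene of circulating naive T cells, rested on 1 ligated UMI, with a ratio of 11.8 (2.1 to 467), and Rhob had 0 ligated UMIs.

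The AF12198-treated tumour set against the control tumour asks what blocking the interleukin-1 receptor changes. The members took a smaller share of UMIs in all 14 classes compared, from 1.32-fold lower in plasma-like to 4.33-fold lower in acinar-like cells, and in all 27 clusters with enough cells in both libraries outside the erythroid-like cluster. In each of the 14 classes the share of members called lower was above that of all genes, whose medians were also below 0. Few members were higher. Erythroid-like cells moved in the same way, with 1 of 40 members higher (background 12.3%) and 25 lower (44.7%), so the level used here for free RNA moved with the result, and its part was not tested beyond the subtraction. After subtraction of each library's pooled profile, the members lower numbered 19 of 38 in fibroblast-like cells (21.0% of all genes lower under that setting), 27 of 40 in epithelial-like (27.0%), 17 of 39 in endothelial-like (25.5%), 24 of 39 in macrophage or monocyte-like (23.3%) and 23 of 38 in neutrophil-like cells (25.5%).

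In fibroblast-like cells (1352 control and 521 treated), 1 of 40 members was higher (background 7.67%) and 21 were lower (22.3%), with a median log2 ratio of -0.64 against -0.27 for all genes. Zfp36 had the largest difference, at 1429 and 487 CPM, 2.94-fold lower (2.82 to 3.06), followed by Ier2, at 699 and 249 CPM, 2.81-fold lower (2.65 to 2.97). Junb was 2.38-fold lower (2.32 to 2.44), Dusp6 2.35-fold lower (1.89 to 2.95), Dusp1 2.23-fold lower (2.16 to 2.29) and Rgs2 2.15-fold lower (1.9 to 2.45). Nr4a1 was 1.87-fold lower (1.79 to 1.94), Klf2 1.83-fold lower (1.71 to 1.97), Egr1 1.75-fold lower (1.72 to 1.79) and Nr4a3 1.52-fold lower (1.45 to 1.61). Fos had a ratio of 0.724 (0.708 to 0.741), Jun a ratio of 0.78 (0.763 to 0.798), Ier3 a ratio of 0.899 (0.869 to 0.931) and Myc a ratio of 0.981 (0.886 to 1.09), none past 1.5-fold. Fosl1 was the one higher member, at 0, 11, 10.9 and 22.8 CPM across the 4 libraries, 2.1-fold higher (1.65 to 2.67).

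Several members were highest in the control tumour. In fibroblast-like cells Dusp1 stood at 721, 1184, 1952 and 877 CPM and Zfp36 at 442, 1070.3, 1429 and 487 in the order normal, ligated, control and treated. For both the treated tumour lay between the normal and the ligated level. Junb, at 1559, 2125, 2951 and 1241 CPM, was below both pancreas libraries in the treated tumour.

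**Figure D3:**
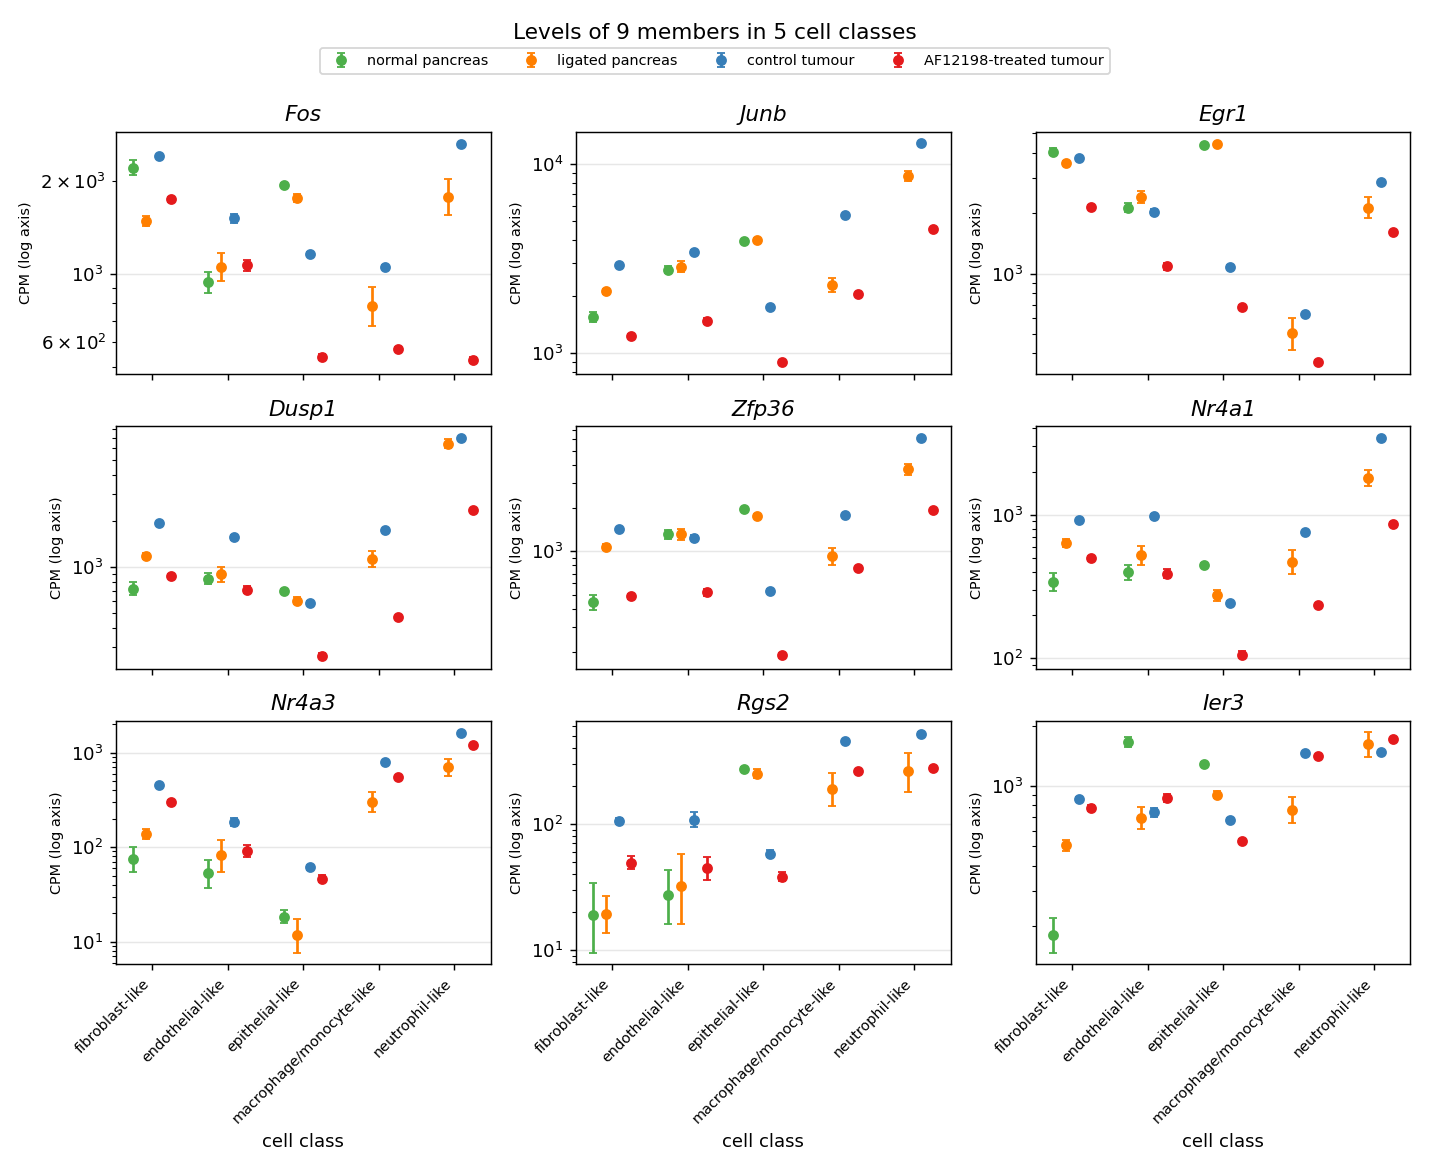
Level of 9 members in CPM (y axes, log scale) in 5 cell classes (x axes) and up to 4 libraries (colour); bars are exact 95% intervals for counting error. The treated tumour lies below the control tumour for 8 of the 9 genes in all 5 classes; Ier3 is the exception, with 1470.0 and 1712 CPM in neutrophil-like cells.

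Endothelial-like cells (499 and 341) had 3 of 40 members higher (background 11.2%) and 21 lower (25.7%). Measured from the median of all genes it was 5 (background 17.8%) and 17 (16.0%). All 6 calcium and NFAT-responsive members were lower, Nr4a1 2.5-fold lower (2.31 to 2.72), Rgs2 2.43-fold lower (1.9 to 3.14) and Nr4a3 2.01-fold lower (1.69 to 2.41) among them. Dusp5 was 2.83-fold lower (2.37 to 3.39), Jund 2.46-fold lower (2.31 to 2.62), Dusp6 2.42-fold lower (2.15 to 2.74), Zfp36 2.39-fold lower (2.23 to 2.57) and Egr1 1.86-fold lower (1.77 to 1.96). Rgs1, 4.55-fold lower (3.04 to 7.01), was below the erythroid-like level in both. Atf3, a stress-response factor, was 1.56-fold higher (1.4 to 1.73), at 595, 420.2, 289 and 450.1 CPM across the libraries. Jun had a ratio of 1.04 (0.988 to 1.1), Ier3 a ratio of 1.17 (1.09 to 1.26), Klf2 a ratio of 0.694 (0.639 to 0.753) and Fos a ratio of 0.705 (0.667 to 0.745).

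In epithelial-like cells (1280 and 1177), 0 of 40 were higher (background 6.68%) and 21 lower (25.6%). From the median of all genes it was 2 (background 14.4%) and 10 (7.74%). Here the ERK phosphatases were among the lowest, with Dusp6 at 43.2, 45.2, 186 and 70.5 CPM across the libraries, 2.64-fold lower (2.45 to 2.85), and Dusp5 2.48-fold lower (2.32 to 2.64). Zfp36 was 2.81-fold lower (2.69 to 2.94), Klf6 2.44-fold lower (2.35 to 2.52), Nr4a1 2.28-fold lower (2.14 to 2.42), Dusp1 2.21-fold lower (2.13 to 2.3), Fos 2.16-fold lower (2.1 to 2.22) and Egr1 1.59-fold lower (1.55 to 1.63). Jun had a ratio of 0.942 (0.912 to 0.974) and Myc a ratio of 0.818 (0.752 to 0.89). By cluster, the share went from 4.61 to 2.71% in cluster 2, from 0.608 to 0.416% in cluster 20 and from 1.35 to 0.756% in cluster 30, with 17, 12 and 24 of 40 members lower against 29.7, 23.8 and 27.5% of all genes.

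Neutrophil-like cells (6037 and 7456) had 0 of 40 members higher (background 6.44%) and 22 lower (31.0%). Measured from the median of all genes it was 1 (background 14.6%) and 14 (13.7%). Fos showed the largest difference, at 1774, 2618 and 526 CPM in ligated, control and treated, 4.98-fold lower (4.85 to 5.12). Nr4a1, at 1813, 3417 and 866 CPM, was 3.95-fold lower (3.86 to 4.03). Zfp36 was 3.16-fold lower (3.11 to 3.2), Dusp1 2.97-fold lower (2.93 to 3.01) and Junb 2.85-fold lower (2.82 to 2.88), and all 3 were below the ligated level. Of the 9 bZIP members 7 were lower. Ier3, which NF-κB is known to induce, had a ratio of 1.16 (1.14 to 1.19), Nr4a3 a ratio of 0.736 (0.719 to 0.752) and Klf2 a ratio of 0.697 (0.666 to 0.73). Myc, at 12.4 and 3.37 CPM, lay at or below the erythroid-like level.

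The neutrophil-like clusters were filled unequally: cluster 21 held 5087 control and 106 treated cells, cluster 19 (Gpr84, Tnf) 186 and 4211, and cluster 18 held 267 and 2501. The members' share was nevertheless lower in the treated tumour within each of the 5 clusters. It went from 7.43 to 4.07% in cluster 21, from 6.42 to 3.55% in cluster 19, from 8 to 4.75% in cluster 18, from 6.36 to 3.73% in cluster 10 (Rsad2, Ifit1) and from 3.54 to 1.57% in cluster 28 (Ngp, Camp). Between 17 and 23 members were lower in each, against 30.1 to 36.9% of all genes. In neutrophil-like cells the summed heat shock share was also lower, 0.996 and 0.582%, and its part was not tested.

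Macrophage or monocyte-like cells (4936 and 4233) had 0 of 39 members higher (background 7.03%) and 25 lower (24.6%). From the median of all genes it was 2 (background 13.7%) and 16 (8.49%). Dusp1 had the largest difference, at 1134, 1748 and 473 CPM in ligated, control and treated, 3.7-fold lower (3.63 to 3.77). Nr4a1, at 469.6, 756 and 234 CPM, was 3.23-fold lower (3.15 to 3.32), Junb 2.62-fold lower (2.6 to 2.65), Klf2 2.45-fold lower (2.3 to 2.6), Jund 2.37-fold lower (2.31 to 2.43) and Zfp36 2.34-fold lower (2.31 to 2.38). Fos was 1.84-fold lower (1.8 to 1.87), Jun 1.86-fold lower (1.81 to 1.92), Egr1 1.72-fold lower (1.68 to 1.77) and Rgs2 1.72-fold lower (1.67 to 1.77). Ier3 had a ratio of 0.962 (0.948 to 0.976) and Nr4a3 a ratio of 0.696 (0.682 to 0.711). Cluster 17 held 2744 control and 86 treated cells and cluster 13 (Arg1, Inhba) 858 and 2443. Within them the shares were 3.34 and 2.11%, and 3 and 1.81%; within cluster 12 they were 2.82 and 1.69%.

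**Figure D4:**
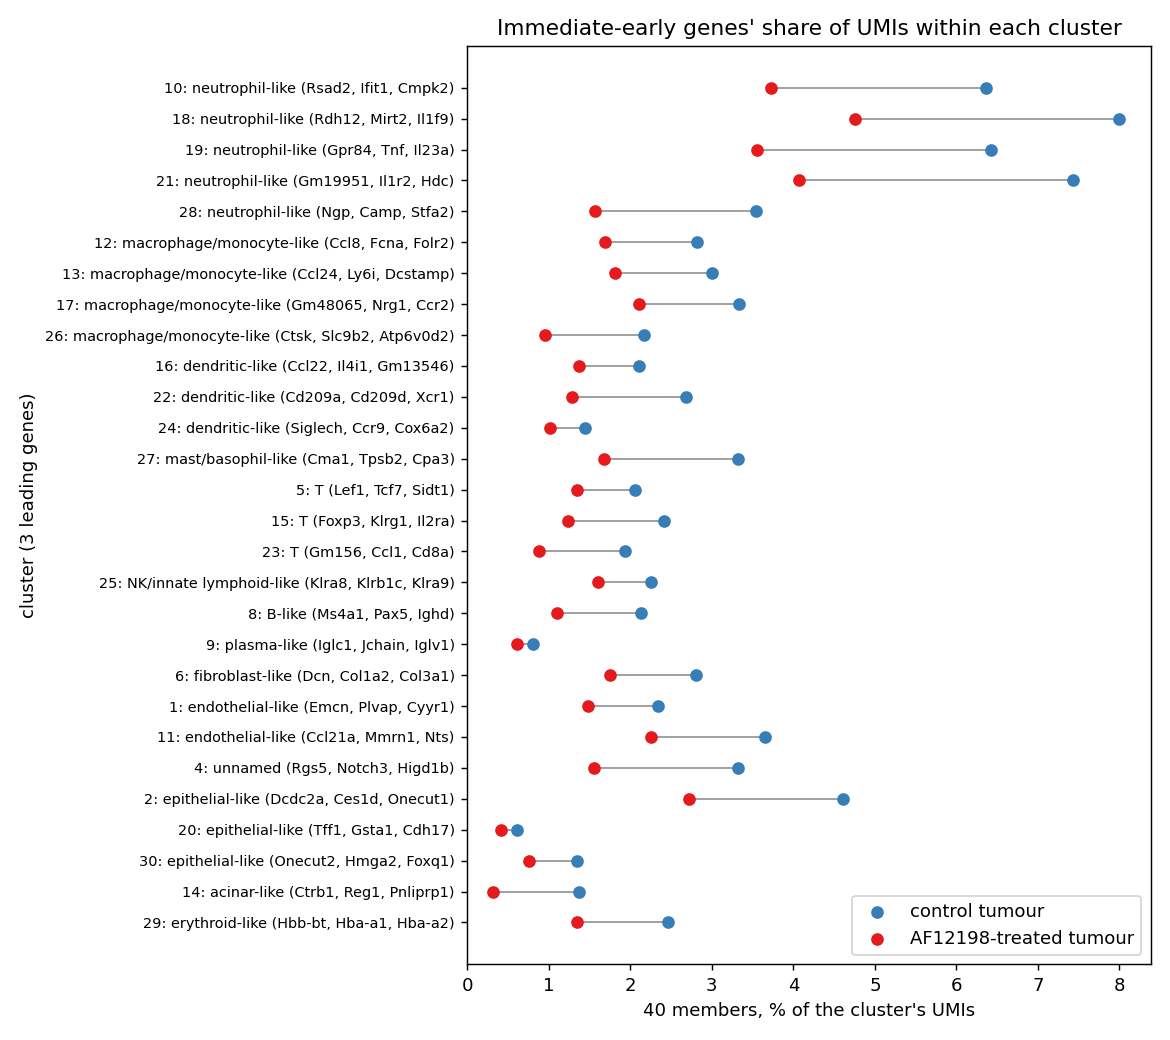
Share of a cluster's UMIs (x axis, percent) that belong to the 40 members in the control tumour (blue) and the AF12198-treated tumour (red), for each cluster with enough cells in both (rows, with 3 leading genes). The treated value lies to the left in every row, from 8 to 4.75% in cluster 18 at the top end and from 1.37 to 0.317% in the acinar-like cluster 14 at the low end.

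In the lymphoid classes, where most members did not stand above the erythroid-like level, the counts ran the same way. T cluster 5 had 0 higher (background 7.47%) and 21 of 39 lower (44.1%). From the median of all genes it was 6 (background 19.7%) and 13 (18.7%). T cluster 23, with Cd8a and Ifng among its leading genes, had 0 (6.82%) and 32 of 39 (38.2%), and T cluster 15, which Foxp3 led, 1 (13.4%) and 24 (34.6%). NK or innate lymphoid-like cells had 0 (9.43%) and 17 (42.2%), B-like cells 0 (7.74%) and 29 (41.8%), and plasma-like cells 1 (14.3%) and 19 (37.6%). The share of NK or innate lymphoid-like members lower was thus near the background. Of the calcium and NFAT-responsive members, Nr4a2, Nr4a3 and Rgs2 were above the erythroid-like level in cluster 23 in both tumours. Nr4a1, Egr2 and Egr3 were not. Nr4a2 stood at 1439.6 and 746 CPM, Nr4a3 at 1027 and 653 and Rgs2 at 1117 and 523. In T cluster 5 Nr4a3 was level, at 694 and 739 CPM with a ratio of 1.06 (0.978 to 1.16).

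Dendritic-like cells had 0 members higher (background 6.23%) and 28 of 39 lower (37.1%), with Dusp1 at 1882 and 430.4 CPM, 4.37-fold lower (4.17 to 4.59), and Jun 3.64-fold lower (3.29 to 4.04). Mast or basophil-like cells had 5 (26.8%) and 24 (35.3%); their Egr3, at 1274 and 222 CPM, was 5.73-fold lower (4.41 to 7.46), and their Ier3 stood at 3394 and 2319 CPM. Acinar-like cells (66 and 325) had 1 (3.83%) and 36 (79.0%), beside a median log2 ratio of -1.42 over all genes. Fosl1 there had 16 control UMIs and 0 treated.

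**Figure D5:**
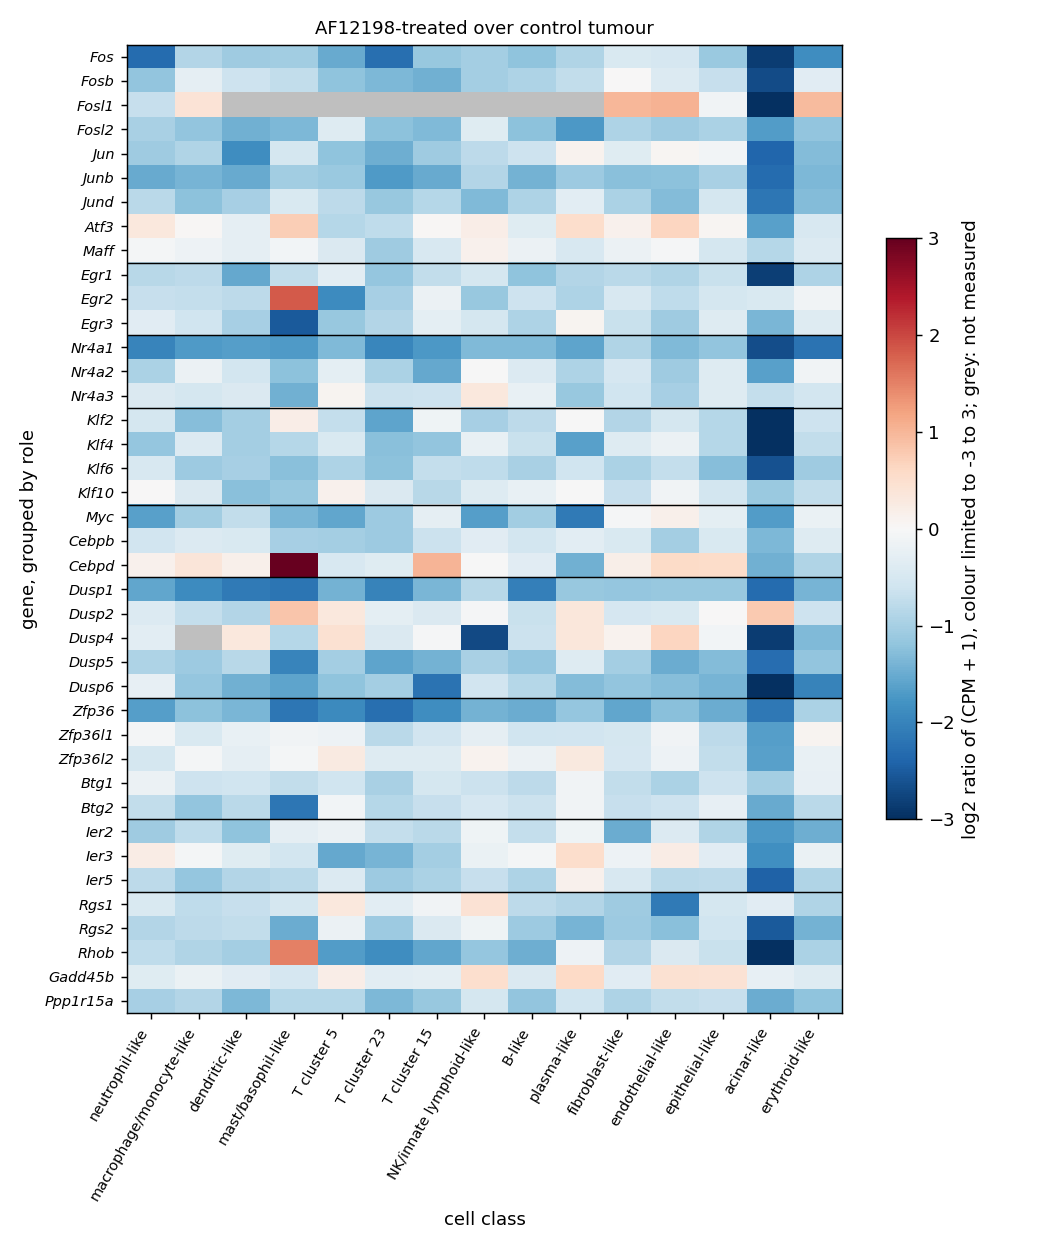
Log2 ratio of (CPM + 1), AF12198-treated over control tumour, for each member (rows, grouped by role) in 15 cell classes (columns); blue is lower in the treated tumour, red higher, grey not measured. The rows of Junb, Nr4a1, Dusp1 and Zfp36 are blue in every column, while that of Gadd45b stays light. Fosl1, Atf3 and Cebpd hold both red and blue cells, Fosl1 from -5.32 in acinar-like to 1.04 in endothelial-like cells. Egr2 and Rhob are red in mast or basophil-like cells (1.85 and 1.51).

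Across the 14 classes the members separated into those lower nearly everywhere and those that were not. Junb, Nr4a1, Dusp1 and Zfp36, whose promoter windows are given above, were lower in all 14, with medians over classes of -1.32, -1.61, -1.5 and -1.52 in log2. In the control tumour they stood above the erythroid-like level in only 3, 4, 1 and 3 of the 14 classes. Erythroid-like cells themselves had log2 ratios of -1.34, -2.22, -1.39 and -0.947 for them. The part of free RNA in these differences was not tested beyond the subtraction. Dusp5, Klf6 and Ppp1r15a, which restores translation under stress, were lower in 13, and Fos, Fosl2, Egr1 and Dusp6 in 12. At the other end Gadd45b was lower in none, Maff, Zfp36l2 and Cebpd in 2, Atf3 and Dusp2 in 3, and Ier3 and Zfp36l1 in 4. Fosl1, measured in 6 classes only, was lower in 2 of them and higher in 2, and Dusp4 was lower in 4 of 13. Within families the members thus differed: Nr4a1 was lower in 14 classes and Nr4a2 and Nr4a3 in 7 each, Zfp36 in 14 and Zfp36l2 in 2, and Dusp1 in 14 and Dusp2 in 3. All of these classes share the same pair of libraries.

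By list, the handling-responsive members were lower in 13 of 25 in fibroblast-like, 11 in endothelial-like, 16 in epithelial-like, 16 in macrophage or monocyte-like and 15 in neutrophil-like cells. Of the 6 calcium and NFAT-responsive members 4, 6, 2, 4 and 4 were lower in the same order, and of the 9 in neither list 4, 4, 3, 5 and 3. The background of all genes lower was 22.3, 25.7, 25.6, 24.6 and 31.0% in that order. Some counts of the smaller lists, such as 3 of 9 in neutrophil-like cells, were near it. The summed share of heat shock genes, which digestion also raises, was lower in 9 of the 14 classes and higher in 5. It was 0.855 and 0.877% in fibroblast-like, 0.98 and 1.14% in endothelial-like and 0.928 and 0.689% in macrophage or monocyte-like cells. The part of handling in the members' differences was not tested.

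Other genes of the same pathways were counted in the same way. Of the upstream kinases and factors, such as the MAP kinases, Srf and Creb1, 12 of 26 were lower and 0 higher in fibroblast-like cells, 12 and 0 in macrophage or monocyte-like and 8 and 1 in neutrophil-like cells. Of 32 other rapid-response genes 11 of 29 measured were lower in fibroblast-like and 9 of 27 in neutrophil-like cells. The share of all genes lower was 22.3% in fibroblast-like, 24.6% in macrophage or monocyte-like and 31.0% in neutrophil-like cells. For the upstream list the number measured is given for fibroblast-like cells only, so its other counts are not set against these shares.

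Over the 40 profiles of a class in a library, the log2 level of each gene was correlated with the log2 of the members' summed level. Among 6002 genes outside the list, the highest values were those of Ccnl1 (Pearson r = 0.917), Nfkbiz (0.889), Wsb1 (0.853), Ddx3x (0.850), Samd4b (0.847), Spag9 (0.829), Sec24b (0.824), Nfkbia (0.818), Srsf5 (0.816) and Tug1 (0.814). Among the members themselves Junb (0.944), Ppp1r15a (0.927), Dusp1 (0.895), Zfp36 (0.871) and Nr4a1 (0.853) ran closest to that sum and Dusp4 (-0.343) and Rgs1 (0.0259) least. The sum contains each member and weighs abundant ones such as Junb most, so their high values are partly built in. The profiles share 4 libraries and their depth, so these values are a description.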

How the data were processed

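The authors deposited a matrix of raw UMI counts for each library. Per the submitters' processing notes these came from Cell Ranger 6.0.0 and mm10, and which annotation release was used is not given in the sources used here. Everything after the counts was computed here. The matrices held 1844, 1165, 23189 and 21840 barcodes; cells with at least 250 genes and 500 UMIs and at most 20% mitochondrial UMIs were kept, and 3, 0, 2110 and 1018 called doublets were removed. Pairs of libraries shared between 1 and 129 barcodes, at most 1.03% of the smaller library.

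All libraries were clustered together with Scanpy 1.11.5 (2000 variable genes, 40 principal components, 20 neighbours, Leiden resolution 1). A cluster was named where at least 3 markers of a class were raised 2-fold in at least 10% of its cells and no second class came close; these thresholds were set after the data were seen. Clusters 0, 4 and 7 stayed unnamed. T cells are given by cluster because the Foxp3 cluster had more innate lymphoid than T markers among its 10 leading genes. Classes with at least 25 cells in both libraries were compared, on summed UMIs as counts scaled to a fixed total of UMIs of a class in a library (CPM), with a pseudocount of 1 CPM. Poisson intervals for levels and conditional binomial intervals for ratios are exact (scipy 1.17.1) and treat UMIs as independent molecules; they hold no variation between animals. Against a library with 0 UMIs a fold is a bound from a floor of 3 counts. The calculations were tested on simulated data.

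In each comparison and class up to 6 members each way with the largest log2 ratio were eligible to be named, among those past 1.5-fold whose interval leaves out 1; Fos, Jun, Egr1, Dusp1, Ier3, Zfp36, Klf2, Myc, Nr4a1, Nr4a3 and Rgs2 could be named throughout, and other members are named by family or where their level is described. The members, lists and promoter set were chosen with earlier results of these data known.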

Additional observations from a re-analysis of the deposited data

Results flagged for a closer look

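Some members went in opposite directions in different classes of the same comparison, at least 2-fold each way. With 1 library per group none of these differences was tested. In ligated over normal pancreas Ier3 had a log2 ratio of 1.48 in fibroblast-like and -1.26 in endothelial-like cells, and Dusp6 had 1.24 in endothelial-like and -1.48 in fibroblast-like cells. Of those endothelial-like cells, cluster 11 held 3 normal and 38 ligated ones.

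In control tumour over ligated pancreas Fosb had 1.17 in neutrophil-like cells and -1.55 in T cluster 5, and Nr4a3 had 2.29 in epithelial-like cells and -1.55 in T cluster 5. Epithelial-like cells were opposed to other classes for Fosl1 (3.51 there and -2.48 in macrophage or monocyte-like cells), Junb (-1.18 and 1.24 in macrophage or monocyte-like), Btg2 (-1.87 and 1.12 in macrophage or monocyte-like) and Rgs2 (-2.09 and 2.39 in fibroblast-like). The epithelial-like cells of those libraries lie mostly in different clusters. Within cluster 2 Junb went from 3994 to 5019.6 CPM, Btg2 from 983 to 1908 CPM and Rgs2 from 251 to 370.4 CPM.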

How the results depend on the processing

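No paired analysis was possible because each group is 1 library. Of the counts of members recomputed under the alternatives, 142 stayed within 1.5 times and 13 did not; of the single-gene values, 1951 moved by less than their interval, 571 by more, and 7 changed sign; the cause was not tested. Measured from the median of all genes, the members lower in the AF12198-treated tumour numbered 10 in epithelial-like, 16 in macrophage or monocyte-like, 14 in neutrophil-like cells and 13 in T cluster 5, and the higher endothelial-like members 6 in ligated over normal and 14 in control over ligated. CPM without mitochondrial, ribosomal and rRNA-like genes also gave 6 in the former. Thinning to 1000 UMIs gave 10 lower epithelial-like members in ligated over normal and 16 higher endothelial-like in control over ligated. Subtracting the pooled profile gave 17 higher fibroblast-like members (39.5% of all genes higher, against 21.4% without it) and 8 lower epithelial-like ones (12.3% of all genes lower) in ligated over normal. Resolution 2 gave 13 higher macrophage or monocyte-like members (20.4% of all genes higher) in control over ligated, against 20 at resolution 1. Cluster 2 alone, chosen after seeing the data, gave 1 lower epithelial-like member there. Signs changed in endothelial-like cells for Gadd45b (0.41, ligated over normal, resolution 0.5), Egr3 (-0.0817, ligated over normal, thinned), Klf10 (0.18, control over ligated, thinned) and Nr4a3 (-0.10, control over ligated, subtracted), in macrophage or monocyte-like cells for Myc (-0.68, control over ligated, thinned), and in T cluster 5 for Jun after subtraction (5.27, control over ligated; 0.29, AF12198-treated over control). T clusters have no value where cells were clustered again. Ligated cells were few, which limits macrophage, neutrophil and T values most.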
